A study of Mus musculus with 36 samples.

Results

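The SoxB genes Sox1, Sox2, Sox3 and Sox21 were followed through 7 days of motor neuron differentiation of mouse embryonic stem cells. They are the 4 rows, of 51912 gene IDs in the deposited mouse tables, whose Ensembl ID maps to these symbols: ENSMUSG00000096014 for Sox1, ENSMUSG00000074637 for Sox2, ENSMUSG00000045179 for Sox3 and ENSMUSG00000061517 for Sox21. Polyadenylated RNA was sequenced from HM1 cells, a mouse embryonic stem cell line, grown as a monolayer after the feeder cells had been taken off. Every library shared the same treatment before day 0. The cells had 10 ng/ml bFGF from day -3, and on day -1 also 5 µM CHIR99021, which activates Wnt signalling by blocking GSK3, 10 µM SB431542, which blocks Activin and TGF-beta receptors, and 2 µM DMH1, which blocks BMP receptors. The libraries of days 0.5, 1, 1.5, 2, 2.5, 3, 3.5, 4, 5, 6 and 7 had in addition received 100 nM retinoic acid and 500 nM SAG, an agonist of Smoothened that turns on Hedgehog signalling, and the day 0 libraries are the labelled control. Each of the 12 time points had 3 libraries, and no group was kept without retinoic acid and SAG beyond day 0, so the effect of time and that of the agents cannot be told apart.

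SoxB proteins are transcription factors that bind and bend DNA through the HMG box, a domain shared by the whole Sox family. The SoxB1 proteins Sox1, Sox2 and Sox3 are mostly activators with overlapping roles, and they hold neural progenitors in an undifferentiated, dividing state, whereas the SoxB2 proteins Sox21 and Sox14 mostly repress, and in the chick spinal cord Sox21 promotes the exit of progenitors into neurons. Sox2 is also a core factor of pluripotent cells, where it binds DNA together with Oct4 (Pou5f1), and in neural cells SoxB1 proteins pair with other partners such as the class III POU factors.

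The 4 genes are so alike in their HMG box that the same stretch of code can be set side by side. Reads that could be assigned to the wrong member are not limited to this stretch. The lines below give the 75 coding bases of Sox2 within the box that the other members matched best in total, with their matching stretches. They run 5′ to 3′ on the coding strand, and capitals mark the 10 positions at which the 4 are not all the same. They were read from the GENCODE M21 transcripts on GRCm38. The stretches lie at chr8:12396553-12396627 on the plus strand for Sox1, chr3:34650584-34650658 on the plus strand for Sox2, chrX:60892885-60892959 on the minus strand for Sox3 and chr14:118235498-118235572 on the minus strand for Sox21.
Sox1: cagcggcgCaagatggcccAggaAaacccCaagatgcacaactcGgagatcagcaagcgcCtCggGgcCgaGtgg
Sox2: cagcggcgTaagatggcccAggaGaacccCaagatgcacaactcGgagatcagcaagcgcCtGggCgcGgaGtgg
Sox3: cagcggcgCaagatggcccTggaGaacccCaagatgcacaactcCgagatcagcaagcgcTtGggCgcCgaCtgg
Sox21: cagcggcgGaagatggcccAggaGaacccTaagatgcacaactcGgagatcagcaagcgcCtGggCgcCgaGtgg
In this stretch, chosen by likeness to Sox2, Sox21 and Sox2 were the closest pair, with 96.0% of the bases the same. Sox3 and Sox1 were the most distant, with 90.7%. Over the whole transcripts, this box included, the members share few words. Only 34 of the 4803 words of 30 bases in the Sox1 transcript, 20 of 2028 in Sox2, 19 of 2036 in Sox3 and 15 of 3770 in Sox21 occur in another of the 4, so most of each transcript can be told from the others. Counted against all other genes on the same strand, the shared words were 105 in Sox1, 21 in Sox2, 22 in Sox3 and 18 in Sox21. Those of Sox1 were spread over 1512 genes. The longest open reading frames code for 391 amino acids in Sox1, 319 in Sox2, 450 in Sox3 and 276 in Sox21.

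All 4 genes consist of 1 exon. By GENCODE M21 on GRCm38, Sox1 lies at chr8:12395295-12400126 on the plus strand, Sox2 at chr3:34650405-34652461 on the plus strand, Sox3 at chrX:60891366-60893430 on the minus strand and Sox21 at chr14:118233232-118237030 on the minus strand. Sox1 lies within the long noncoding gene Sox1ot, and Sox2 within the long noncoding gene Sox2ot, in each case on the same strand and with 0 shared exon bases. An annotated small RNA, Gm25239, lies inside the Sox1 exon (86 bases). Sox21 shares 713 exon bases with Gm4675, a long noncoding gene on the opposite strand. Whether counting used strand is not given in the sources used here, so the reads of Sox21 and Gm4675 cannot be told apart over those bases.

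Library totals ran from 26567321 to 35757989 counts, and a member had 61 to 7636 counts in a library, the lowest being Sox21 at day 0. Levels are given in TPM (a share of all transcripts in a library, corrected for transcript length, so that genes may be set side by side), and changes as log2 fold changes from the expected counts with an approximate standard error. Tests are edgeR's quasi-likelihood test over all 36 libraries, in which 17990 genes were tested and all 4 members passed the filter on low counts, with Benjamini-Hochberg adjustment over those genes and a call at an adjusted p under 0.05. The 3 libraries of a day are labelled as biological replicates, but whether each had its own culture dish is not said, so the spread behind every p-value may be technical. These are bulk samples, in which fewer cells of a type and less RNA per cell cannot be told apart.

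The label of neural progenitor cells was checked against 18 progenitor markers. Their summed level was 582 to 599 TPM at day 0, 1111 to 1151 TPM at day 0.5, 4003 to 4214 TPM at day 3 and 7274 to 7523 TPM at day 7. The sum at day 7 was carried by a few abundant genes, among them Fabp7 and Vim, since 10 of the 18 markers were called lower and 7 higher at day 7 than at day 3, with a median log2 fold change of -0.38. In that comparison 36.1% of all genes tested were called lower and 36.2% higher. Day 0 stood apart, since Pax6, a progenitor factor, was at 1.10 ± 0.10 TPM and Pou5f1, a pluripotency factor, at 275 ± 10.5 TPM (SD, n = 3). Later libraries held more than progenitors. Of 18 pan-neuronal markers, 18 were called higher at day 3 than at day 0.5, where 37.6% of all genes tested were, with a summed level of 3727 to 3905 TPM at day 3, against 261 to 267 TPM at day 0.5. Of 16 markers of glial progenitors, 14 were called higher at day 7 than at day 3, where 36.2% of all genes were. Their sums were 4044 to 4187 TPM at day 7, against 818 to 900 TPM at day 3. Most of both sums was Fabp7, at 3188 ± 78.5 TPM at day 7 and 660 ± 36.1 TPM at day 3. Fabp7 and Slc1a3 are on the progenitor list too, so the 2 sums are not separate. Gfap and S100b were under 0.1 TPM in every day 3 library. At day 7 S100b was at 2.19 ± 0.45 TPM, while Gfap was at 0.12 ± 0.11 TPM and was not called (edgeR adjusted p = 0.361). Of 18 cell cycle genes, 18 were called lower at day 7 than at day 3, where 36.1% of all genes were, and their sum was 537 to 654 TPM at day 7, against 2283 to 2309 TPM at day 3.

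Sox1, Sox2 and Sox21 had their lowest day mean at day 0 and Sox3 at day 7, and the 4 genes took different courses. Sox1 peaked within the first day and fell back, Sox2 was above its day 0 level at every later day, Sox3 was high early and then declined below its starting level, and Sox21 rose to its highest mean at day 5, in steps that were not all upward. The F test over all 11 later days gave adjusted p-values of 2.36e-35 for Sox1, 3.64e-31 for Sox3, 4.69e-30 for Sox21 and 9.23e-23 for Sox2. That 4 of 4 passed says little, since 96.1% of all genes tested passed the same test. Calls between neighbouring days were common too. Over the day before it, 47.5% of all genes were called at day 1, 46.4% at day 1.5, 53.3% at day 2, 47.8% at day 2.5, 34.4% at day 3, 40.8% at day 3.5, 40.2% at day 4, 38.0% at day 5, 50.5% at day 6 and 20.3% at day 7, and a single step of a member that passed is to be read against these shares.

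**Figure D1:**
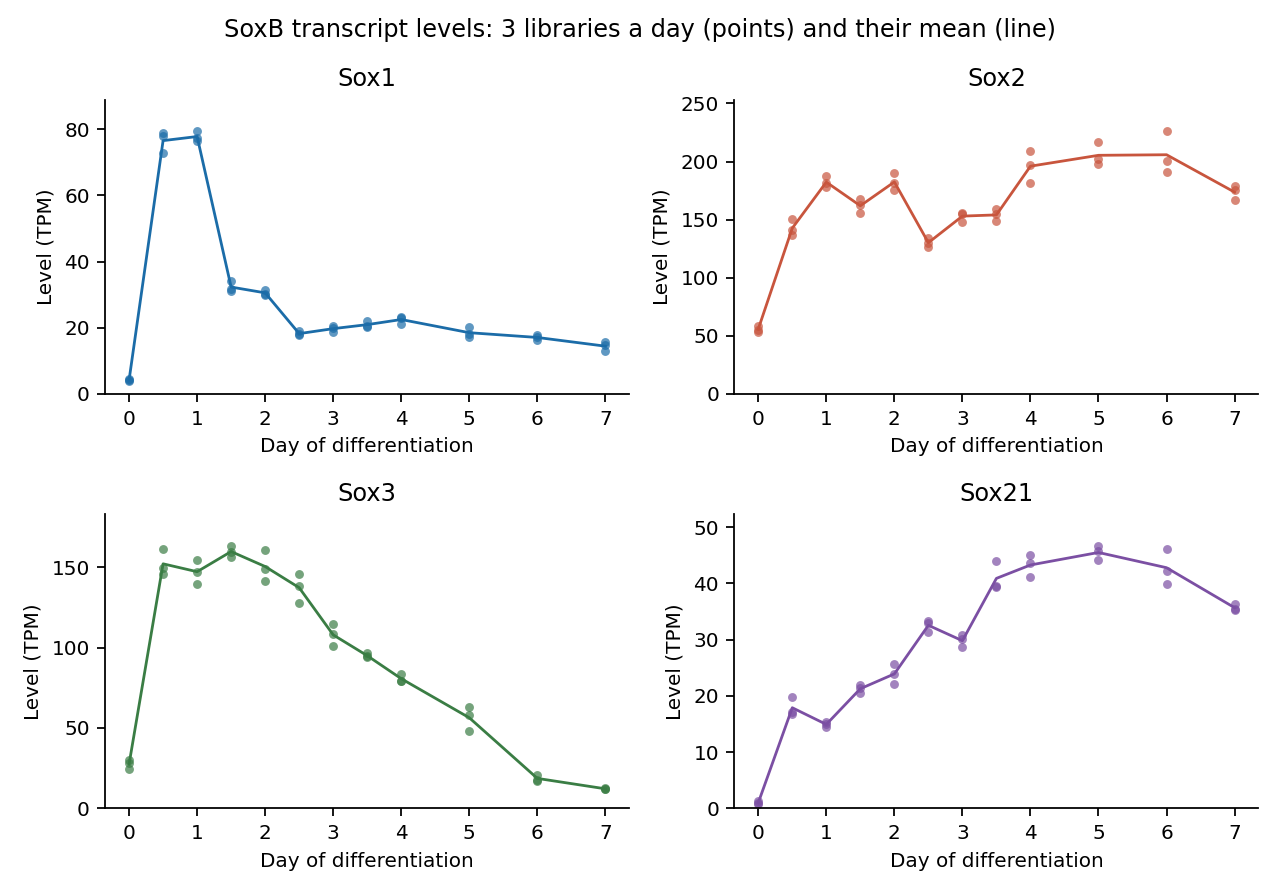
Level of each SoxB gene in TPM (vertical axes, each starting at 0) against the day of differentiation; points are the 3 libraries of a day and the line joins their means. Sox1 was highest at day 1 with a mean of 77.8 TPM, Sox2 at day 6 with 206 TPM, Sox3 at day 1.5 with 160 TPM and Sox21 at day 5 with 45.5 TPM.

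Sox1, a standard marker of early neuroectoderm, was the member with the sharpest peak. It had 78.1, 72.9 and 78.8 TPM at day 0.5, against 4.24, 4.38 and 3.87 TPM at day 0. All 3 libraries at day 0.5 lay far above all 3 at day 0. The change was 4.20 ± 0.06 on the log2 scale, an 18.4-fold rise (edgeR adjusted p = 1.17e-32). At day 1 the libraries had 79.4, 77.5 and 76.6 TPM, which overlapped those of day 0.5, and the difference of 0.01 ± 0.05 on the log2 scale did not pass the test (edgeR adjusted p = 0.871).

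The level of Sox1 then dropped. It was 34.3, 31.6 and 31.1 TPM at day 1.5, against the 3 day 1 values above, and the groups did not overlap. The log2 fold change was -1.22 ± 0.05 (edgeR adjusted p = 3.97e-19). A further fall came at day 2.5, with 18.0, 17.8 and 18.9 TPM, against 29.9, 31.5 and 30.3 TPM at day 2, a log2 fold change of -0.78 ± 0.05 (edgeR adjusted p = 8.23e-14). Through days 3, 3.5 and 4 the libraries ranged between 18.8 and 23.2 TPM, and none of these days differed from the day before it by the test. From day 5 on the level was lower again, and at day 7 it was 14.7, 15.8 and 12.9 TPM, against 19.9, 18.8 and 20.6 TPM at day 3. Those groups did not overlap, and the log2 fold change was -0.62 ± 0.06 (edgeR adjusted p = 9.12e-12). Even at day 7 Sox1 was higher than at day 0, 2.70-fold by the fit.

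In the order of its day means Sox1 ran from day 1 and day 0.5 at the top through day 1.5, day 2, day 4, day 3.5, day 3, day 5, day 2.5, day 6 and day 7 to day 0. Of the 11 neighbouring pairs in that order, 7 differed by the test and 4 did not, namely day 1 and day 0.5, day 4 and day 3.5, day 3.5 and day 3, and day 5 and day 2.5. Sox1ot, whose span holds Sox1, was 7.32 ± 0.32 TPM at day 1, against 2.73 ± 0.11 TPM at day 0.5 (SD, n = 3 each), a log2 fold change of 1.42 ± 0.08 (edgeR adjusted p = 9.18e-16). Over that same interval Sox1 itself did not pass the test. At day 1.5 both were lower than at day 1, and Sox1ot fell by 1.59 on the log2 scale. Later they parted, because Sox1ot was at 4.78 ± 0.24 TPM at day 5, against 2.60 ± 0.24 TPM at day 3 (SD, n = 3 each), while Sox1 was at 18.5 ± 1.63 TPM at day 5, against 19.7 ± 0.89 TPM at day 3.

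Sox2, shared by pluripotent cells and neural progenitors, moved the least of the 4, with a highest day mean that was 3.69 times its lowest. Its values at day 0.5 were 150.2, 141 and 137 TPM, against 58.9, 55.0 and 53.5 TPM at day 0. The groups did not overlap, and the log2 fold change was 1.36 ± 0.05 (edgeR adjusted p = 4.80e-21). It was higher again at day 1, at 178, 181 and 187 TPM, which lay above all 3 day 0.5 values, with a log2 fold change of 0.34 ± 0.05 (edgeR adjusted p = 7.62e-07). Day 2.5 was a low point. There the libraries had 130.1, 127 and 134 TPM, against 176, 181 and 190.4 TPM at day 2, and the log2 fold change was -0.52 ± 0.05 (edgeR adjusted p = 1.76e-10).

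After that low point Sox2 was higher at day 3 than at day 2.5 by 0.19 ± 0.05 on the log2 scale (edgeR adjusted p = 0.00363) and higher at day 4 than at day 3.5 by 0.24 ± 0.05 (edgeR adjusted p = 2.94e-04). At days 5 and 6 the libraries ranged from 191 to 226 TPM. Day 7 was lower, with 179, 176 and 167 TPM, all under the lowest day 6 library, and a log2 fold change over day 6 of -0.23 ± 0.05 (edgeR adjusted p = 0.00108). The highest mean fell at day 6 in TPM (206 ± 18.2 TPM) but at day 1 in CPM (196 CPM at day 6, against 225 CPM at day 1). CPM here is the count relative to the library's total after that total was scaled by its TMM factor (see the processing below). In its order of day means, 6 of 11 neighbouring pairs were not told apart, and days 7 and 1.5 stood in the opposite order in TPM and in the counts, so the order of its upper days is not settled by these data.

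The late level of Sox2 depended on the unit. At day 7 it had a mean of 174 ± 6.37 TPM, against 153 ± 4.18 TPM at day 3 (SD, n = 3 each), and the 3 day 7 libraries lay above the 3 day 3 libraries. The counts gave a log2 fold change of 0.01 ± 0.05 (edgeR adjusted p = 0.828), whereas limma on log2(TPM + 1) gave 0.18 (limma adjusted p = 0.00437). On that TPM scale the median of all genes tested was itself higher by 0.10 at day 7 than at day 3 (0.14 with a pseudocount of 0.1), so Sox2 was 0.08 above the median gene.

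Sox2ot, the noncoding gene around Sox2, climbed over the first 2 days. It had 0.50 ± 0.08 TPM at day 0, 5.35 ± 0.83 TPM at day 0.5, 24.1 ± 1.77 TPM at day 1, 45.5 ± 4.46 TPM at day 1.5 and 70.1 ± 1.03 TPM at day 2 (SD, n = 3 each). Over the same days Sox2 went through means of 55.8, 143, 182, 162 and 182 TPM. At day 7 Sox2ot was at 33.2 ± 1.80 TPM, against 69.6 ± 6.38 TPM at day 3, and its log2 fold change of -1.19 ± 0.05 passed the test (edgeR adjusted p = 6.99e-20).

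**Figure D2:**
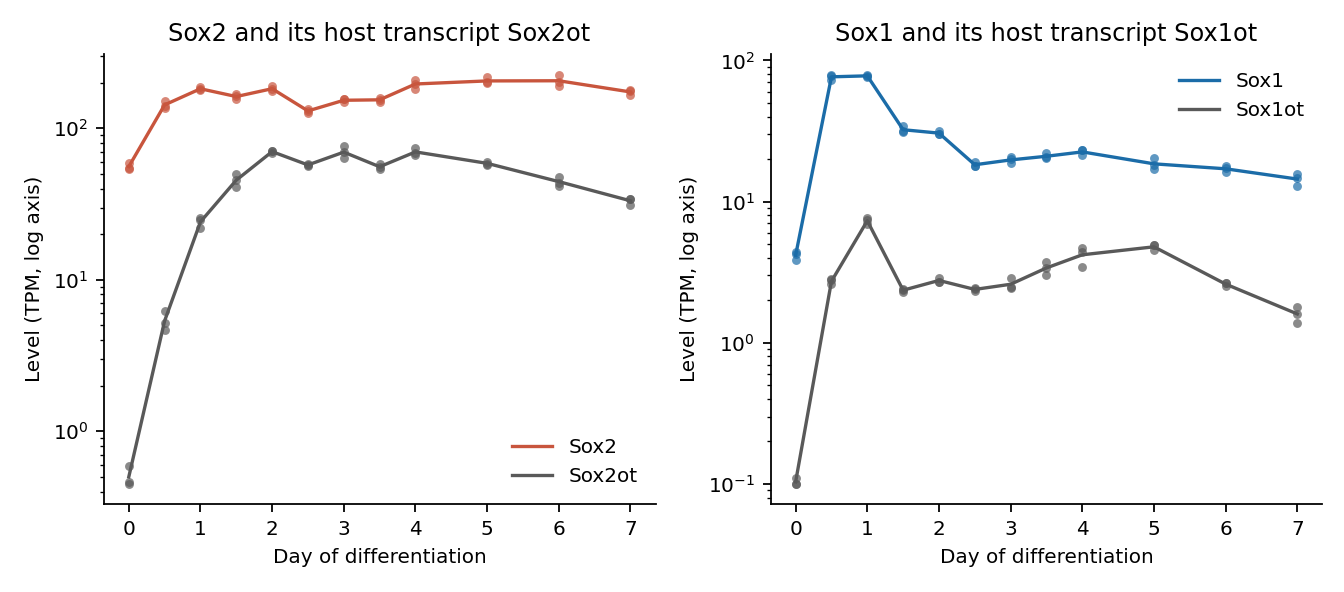
Level in TPM (vertical axes, logarithmic) of Sox2 and Sox2ot, left, and of Sox1 and Sox1ot, right, against the day of differentiation; points are libraries and lines join the means of 3. Sox2ot climbed to 70.1 TPM at day 2 while Sox2 was already at 143 TPM at day 0.5, and Sox1ot was highest at day 1 with 7.32 TPM.

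The RefSeq promoter windows (GRCm38.p6, 250 bases before to 50 after the annotated start) of Sox1, Sox2 and Sox21 were searched on both strands for ATGCAAA, the core of the octamer that POU factors such as Oct4 bind, and for ACAAT, the core of a Sox site. They are shown because Oct4 and the class III POU genes described further on are known partners of Sox2. ATGCAAA was present once in the Sox2 window, starting 99 bases before the RefSeq start. It was present once in the Sox1 window, starting at base 19 counted from the RefSeq start, and these matches overlap no ACAAT. The RefSeq starts differ from the GENCODE starts given above. The Sox2 window, chr3:34649745-34650044, lies wholly upstream of the GENCODE start of Sox2 at 34650405. The Sox1 window, chr8:12395269-12395568, spans the GENCODE start at 12395295, and its match lies downstream of that start. The lines below give 30 bases around each match on the plus strand, with the word in capitals, at chr3:34649885-34649914 for Sox2 and chr8:12395526-12395555 for Sox1.
Sox2: cgccccctttcATGCAAAaccctctggcga
Sox1: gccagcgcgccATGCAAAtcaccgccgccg
ATGCAAA occurs in 4.63% of all 32851 windows and ACAAT in 31.0%, and ACAAT was found in none of these 3 windows. The words were chosen with these sequences in view, and a match is a description of letters, not of a bound site. The 3 windows were rich in G and C (65.7% to 70.7%, against a median of 52.7% over all windows).

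Sox3, the SoxB1 gene on the X chromosome, had a broad early plateau and the deepest decline. It was at 161, 146 and 149 TPM at day 0.5, against 24.3, 28.13 and 29.97 TPM at day 0. The groups were far apart, and the log2 fold change was 2.47 ± 0.08, a 5.56-fold rise (edgeR adjusted p = 3.68e-23). From day 0.5 to day 2 the 12 libraries stayed between 139.5 and 163 TPM, and the order of days 1.5, 0.5, 2 and 1 by level was not told apart between neighbours. Day 2 was nevertheless called lower than day 1.5 (-0.23 ± 0.07, edgeR adjusted p = 0.00599), with overlapping libraries, a call that was lost on the TPM scales (-0.088 with both) and without day 2 replicate 1 (-0.17).

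The decline of Sox3 followed in steps. At day 3 the libraries had 108, 101 and 115 TPM, against 138, 146 and 127 TPM at day 2.5, with no overlap and a log2 fold change of -0.39 ± 0.07 (edgeR adjusted p = 6.64e-05). Day 4 was lower than day 3.5 by 0.35 ± 0.07 and day 5 lower than day 4 by 0.48 ± 0.08 on the log2 scale (edgeR adjusted p = 3.31e-04 and 5.69e-06). The steepest step came between days 5 and 6. At day 6 the libraries had 17.7, 17.3 and 20.9 TPM, against 62.9, 47.8 and 58.2 TPM at day 5, a log2 fold change of -1.70 ± 0.09 (edgeR adjusted p = 3.97e-17). By day 7 they were at 12.4, 11.9 and 12.1 TPM, lower than every day 6 library. Against day 3 the level at day 7 was 9.98-fold lower, with a log2 fold change of -3.32 ± 0.09 (edgeR adjusted p = 5.43e-26).

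Sox3 was the member that ended below its start. Its 3 day 7 libraries lay under the 3 day 0 libraries, and the log2 fold change over day 0 was -1.53 ± 0.09 (edgeR adjusted p = 1.21e-16). At day 5 it was still above day 0, by 0.77 ± 0.08, so the crossing fell between days 5 and 6, where the difference from day 0 was -0.93 ± 0.09 at day 6 (edgeR adjusted p = 1.68e-11), a comparison in which 85.0% of all genes were called. In its order of day means 8 of 11 neighbouring pairs differed. The cell cycle genes described above had a sum of 897 ± 42.9 TPM at day 6, against 1604 ± 63.2 TPM at day 5 (SD, n = 3 each), and their part in the fall of Sox3 was not tested.

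Sox21, the SoxB2 member, was low at day 0 and rose further after Sox1 had fallen. It had 17.1, 16.7 and 19.8 TPM at day 0.5, against 0.83, 1.23 and 0.90 TPM at day 0, where it had 61 to 80 counts a library. The groups did not overlap, and the log2 fold change was 4.20 ± 0.10, an 18.3-fold rise (edgeR adjusted p = 1.96e-27). A small dip followed at day 1, with 15.1, 15.3 and 14.4 TPM, all below the day 0.5 libraries, and a log2 fold change of -0.27 ± 0.06 (edgeR adjusted p = 5.53e-04).

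From there Sox21 rose in 3 steps, with a small fall before the last. The first, at day 1.5, brought 20.5, 21.4 and 21.9 TPM, with a log2 fold change over day 1 of 0.56 ± 0.06 (edgeR adjusted p = 5.44e-09). The second, at day 2.5, brought 31.4, 32.9 and 33.3 TPM, against 22.12, 25.63 and 23.96 TPM at day 2, and a log2 fold change of 0.41 ± 0.06 (edgeR adjusted p = 7.74e-07). That is the interval in which Sox1 and Sox2 both fell. At day 3 it was lower than at day 2.5, without overlap, by a log2 fold change of -0.17 ± 0.06 (edgeR adjusted p = 0.0218). The third, at day 3.5, brought 39.5, 43.9 and 39.3 TPM, against 30.02, 30.75 and 28.63 TPM at day 3, and a log2 fold change of 0.45 ± 0.06 (edgeR adjusted p = 2.66e-07). In none of the 3 rises did the 3 later libraries overlap the 3 earlier ones.

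The level of Sox21 was highest at day 5, with 45.7, 46.7 and 44.1 TPM, and days 5, 4, 6 and 3.5 were not told apart between neighbours in the order, though day 6 was called lower than day 5 (-0.19 ± 0.06, edgeR adjusted p = 0.00511), a call lost on the TPM scales (-0.089 and -0.091). At day 5 it was 38.5-fold higher than at day 0 by the fit, where 82.3% of all genes were called, with a log2 fold change of 5.27 ± 0.09 (edgeR adjusted p = 4.40e-32). At day 7 it had 35.2, 36.4 and 35.5 TPM, against 40.0, 42.3 and 46.1 TPM at day 6, and the log2 fold change was -0.24 ± 0.06 (edgeR adjusted p = 0.00247). Gm4675 on the opposite strand was at most 2.89 TPM in any library, and was highest at day 3.5 (2.40 ± 0.50 TPM, SD, n = 3). It too was higher at day 3 than at day 0.5 (0.63 ± 0.17 on the log2 scale, edgeR adjusted p = 0.00131), and what part of the Sox21 reads came from its strand was not tested.

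**Figure D3:**
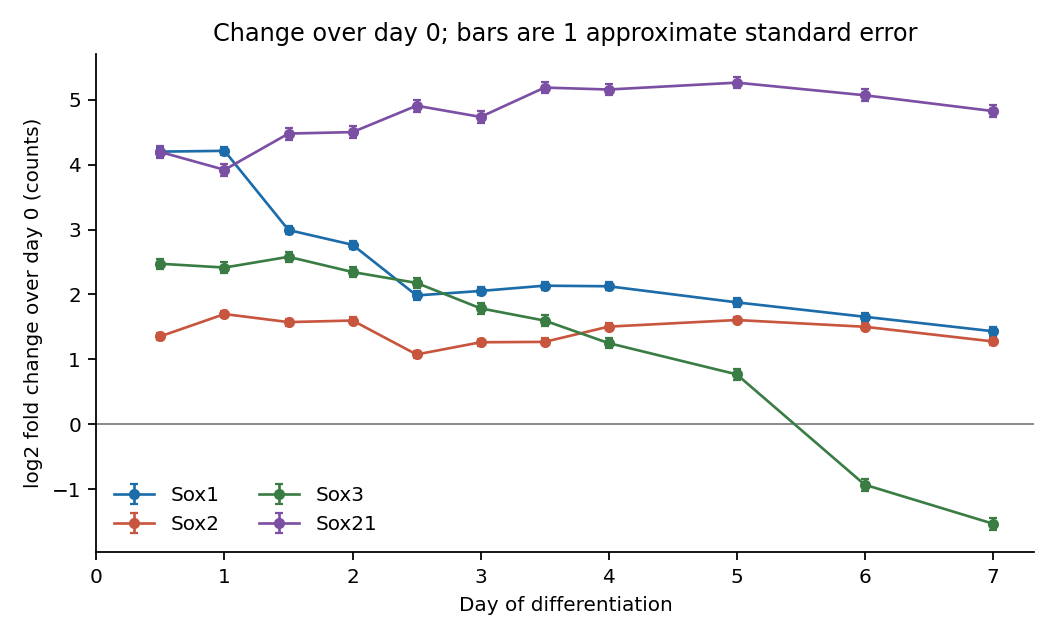
Log2 fold change over day 0 from the count fit (vertical axis) at each later day for the 4 genes; bars are 1 approximate standard error. Sox21 reached 5.27 at day 5, Sox1 was highest at day 1 with 4.21, Sox2 stayed between 1.08 and 1.70, and Sox3 crossed 0 between days 5 and 6 and was at -1.53 at day 7.

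The 3 activators can be summed as an estimate of total SoxB1 transcript, since TPM is per length. The sum of Sox1, Sox2 and Sox3 was 360 to 389 TPM at day 0.5, against 87.4 to 87.6 TPM at day 0, and it was highest at day 1 with 407 ± 4.66 TPM (SD, n = 3). Day 3 had a sum of 281 ± 5.31 TPM. At day 7 the sum was 200.3 ± 7.65 TPM, against 371 ± 15.8 TPM at day 0.5. The day 7 and day 0.5 libraries did not overlap, and the exact permutation test (two-sided) gave p = 0.1, the smallest that 3 against 3 libraries allow.

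Within this sum the genes changed places. Sox2 made up 61.3% to 67.4% of it at day 0, 37.5% to 39.2% at day 0.5, 52.3% to 56.4% at day 3 and 86.4% to 86.9% at day 7. Sox3 held 40.9 ± 0.42% at day 0.5, 48.0 ± 2.42% at day 2.5 and 6.07 ± 0.24% at day 7 (SD, n = 3 each). At days 0.5 and 2.5 the mean share of Sox3 was above that of Sox2, and at every other day that of Sox2 was the larger. At days 1.5 and 2.5 the ranges of the 2 genes overlapped, and at day 2.5 Sox3 held 45.5% to 50.3% and Sox2 43.6% to 47.8%. Sox1 held 20.6 ± 0.84% at day 0.5 and 19.1 ± 0.14% at day 1, and its share stayed between 6.39% and 9.13% in the means of days 1.5 to 7. For each of the 3 shares the day 7 and day 0.5 libraries did not overlap, with p = 0.1 in the exact permutation test, the smallest it can give here.

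**Figure D4:**
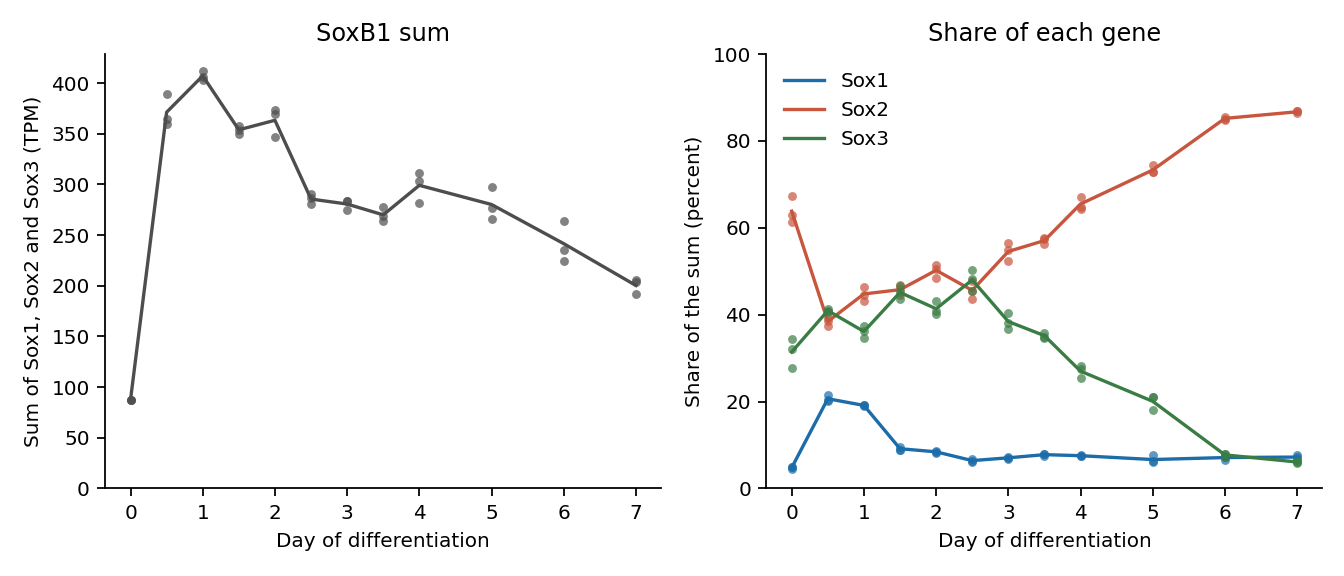
Left, the sum of Sox1, Sox2 and Sox3 in TPM against the day of differentiation; right, the share of that sum held by each gene, in percent. Points are libraries and lines join the means of 3. The sum was highest at day 1 with 407 TPM, and the share of Sox2 was 38.4% at day 0.5 and 86.7% at day 7, while that of Sox3 was 40.9% and 6.07% on those days.

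Relative to the sum of the 3 activators, Sox21 was higher at day 7 than at day 0.5. Sox21 amounted to 1.13 ± 0.24% of the SoxB1 sum at day 0, 4.83 ± 0.54% at day 0.5, 11.4 ± 0.45% at day 2.5, 15.1 ± 0.61% at day 3.5 and 17.8 ± 0.71% at day 7 (SD, n = 3 each). The 3 day 7 values lay above the 3 day 0.5 values, with p = 0.1 in the exact permutation test, the smallest possible. Sox14, the other SoxB2 gene, was not part of this change. Its highest value in any library was 0.10 TPM, and in 29 of 36 libraries it had a count of 0. After day 3.5 the growth of Sox21 relative to the sum came without a higher level of Sox21 itself. That level was 40.9 ± 2.62 TPM at day 3.5 and 35.7 ± 0.60 TPM at day 7 (SD, n = 3 each). Over the same days the SoxB1 sum went from 270 ± 7.04 to 200.3 ± 7.65 TPM, with Sox3 at 94.9 and then 12.15 TPM. Sox2 was at 154 and then 174 TPM, so against Sox2 alone Sox21 did not gain in TPM over these days.

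Read by stage, the 4 genes began together and then separated. Between day 0.5 and day 0, 4 of 4 were called higher, where 27.6% of all genes tested were, and the median of the 4 was 3.34 on the log2 scale, against 0.00 over all genes. Between day 3 and day 0.5, 1 was higher (Sox21) and 2 were lower (Sox1 and Sox3), where 37.6% of all genes were higher and 36.1% lower. Sox1 led the falls with a log2 fold change of -2.15 ± 0.05 (edgeR adjusted p = 4.61e-27). Sox2 did not pass the test there (-0.09 ± 0.05, edgeR adjusted p = 0.0993), though it did with DESeq2 (-0.11, adjusted p = 0.048) and with only the 6 libraries compared (-0.09, edgeR adjusted p = 0.0333). Its sign differed by unit, with 0.10 on log2(TPM + 1), a scale on which the median of all genes was higher by 0.13. Between day 7 and day 3, 2 of 4 were called lower (Sox1 and Sox3), where 36.1% of all genes were. Sox21 had a log2 fold change of 0.09 ± 0.06 there (edgeR adjusted p = 0.168), and it passed only in the fit of 6 libraries and on the TPM scale. Between day 7 and day 0, 3 were higher and Sox3 was lower, where 44.1% and 41.2% of all genes were. With most genes changing, these shares do not set the 4 apart from other genes.

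Other Sox genes were more often called higher than lower, and several rose when Sox1 and Sox3 were falling. Of 16 outside the 4 members, 14 could be tested, and Sox14 and Sry were too low. At day 0.5, 10 of 14 were called higher than at day 0, where 27.6% of all genes were, with a median log2 fold change of 0.61, against 0.00 over all genes. At day 3, 10 of 14 were higher than at day 0.5 and Sox10 was lower, where 37.6% of all genes were higher and 36.1% lower. At day 7, 7 of 14 were higher than at day 3 and 4 were lower, where 36.2% and 36.1% of all genes were, so that the last counts lie near the shares over all genes. The SoxC genes Sox4 and Sox11, which act as neurons differentiate, were higher at day 3 than at day 0.5 by 1.24 ± 0.05 and 1.50 ± 0.05 on the log2 scale. They were then at 156 ± 1.58 and 146 ± 1.37 TPM (SD, n = 3 each), close to the 153 TPM of Sox2 on that day. The SoxE gene Sox9, known for the switch of neural progenitors to glia, was at 84.1 ± 1.45 TPM at day 7, against 38.4 ± 3.95 TPM at day 3 (0.96 ± 0.08, edgeR adjusted p = 3.38e-12).

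Sox10, a gene of neural crest and oligodendrocyte precursors, was at 28.5 ± 1.11 TPM at day 7, against 0.12 ± 0.06 TPM at day 3, and Sox8 was at 25.9 ± 1.84 TPM, against 2.81 ± 0.22 TPM. The SoxD genes Sox5 and Sox6 passed as higher in all 3 stage comparisons, and Sox6 was at 41.1 ± 3.02 TPM at day 7, against 15.5 ± 2.81 TPM at day 3. Sox13, also SoxD, was called higher at day 3 than at day 0.5 (0.21 ± 0.05, edgeR adjusted p = 7.37e-04), where Sox3 was lower, and like Sox3 it was lower late, with 15.7 ± 0.75 TPM at day 7, against 91.7 ± 4.18 TPM at day 3 (-2.68 ± 0.06, edgeR adjusted p = 9.58e-28). The SoxF genes Sox7, Sox17 and Sox18, known from blood vessels, were called higher at day 0.5 than at day 0 and lower at day 7 than at day 3. These 3 Sox genes are themselves on the list of 12 endothelial markers, of which 10 were called higher at day 0.5 than at day 0, where 27.6% of all genes were. The sums of that list were 26.6 to 38.1 TPM at day 0.5, against 11.5 to 12.2 TPM at day 0, where Tie1 was under 0.1 TPM. The 10 and the sums include the 3 Sox genes, so neither is separate evidence of a shared course. Sox4, Sox5, Sox8 and Sox17 share exon bases with a gene on the opposite strand, so their values are uncertain.

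Partner genes of SoxB proteins moved in both directions. Of 19 partner and co-factor genes, 9 were called higher and 5 lower at day 0.5 than at day 0, where 27.6% and 26.7% of all genes were, with a median log2 fold change of 0.10. At day 3, 4 were higher and 13 lower than at day 0.5 (median -0.49), and at day 7, 5 were higher and 12 lower than at day 3 (median -0.58), against all-gene medians of 0.02 and -0.01. Over all genes 37.6% were higher and 36.1% lower at day 3 than at day 0.5, and 36.2% and 36.1% at day 7 than at day 3. Pou5f1 (Oct4) was at 43.1 ± 0.38 TPM at day 0.5, against 275 ± 10.5 TPM at day 0 (-2.69 ± 0.12, edgeR adjusted p = 3.29e-19). In the same interval Pax6, a partner of Sox2 in the lens, was at 107 ± 6.13 TPM, against 1.10 ± 0.10 TPM (6.74 ± 0.10, edgeR adjusted p = 7.54e-33).

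Of the class III POU genes, Pou3f2, Pou3f3 and Pou3f4 rose in the first interval too, and further by day 3, whereas Pou3f1 was lower at day 3. Pou3f2 (Brn2) was at 7.05 ± 0.04 TPM at day 0.5, against 0.19 ± 0.09 TPM at day 0 (5.21 ± 0.15, edgeR adjusted p = 2.32e-24), and Pou3f3 (Brn1) was higher by 2.50 ± 0.15 on the log2 scale (edgeR adjusted p = 8.21e-16). At day 3 Pou3f3 was at 41.0 ± 1.46 TPM, against 1.15 ± 0.06 TPM at day 0.5 (4.95 ± 0.07, edgeR adjusted p = 9.35e-33). Pou3f2 was at 46.8 ± 0.38 TPM, against 7.05 ± 0.04 TPM, and Pou3f4 (Brn4) at 15.4 ± 0.89 TPM, against 1.30 ± 0.06 TPM. Pax6 was by then at 7.92 ± 1.35 TPM, far below its day 0.5 level (-4.07 ± 0.07, edgeR adjusted p = 1.13e-30). Pou3f1 (Oct6) was at 9.61 ± 0.29 TPM at day 0.5, against 8.16 ± 0.36 TPM at day 0 (0.24 ± 0.10, edgeR adjusted p = 0.0463). At day 3 it was at 1.74 ± 0.36 TPM, lower than at day 0.5 (-2.65 ± 0.12, edgeR adjusted p = 1.73e-19). By day 7 it was at 13.1 ± 0.35 TPM, higher than at day 3 (2.73 ± 0.12, edgeR adjusted p = 6.44e-20). Sall4, a pluripotency factor that binds Oct4, fell to 1.98 ± 0.58 TPM at day 7, against 29.7 ± 0.96 TPM at day 3 (-4.29 ± 0.08, edgeR adjusted p = 1.50e-30). Pou5f1, Pou3f1 and Sall4 share exon bases with a gene on the opposite strand and are uncertain to that extent.

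**Figure D5:**
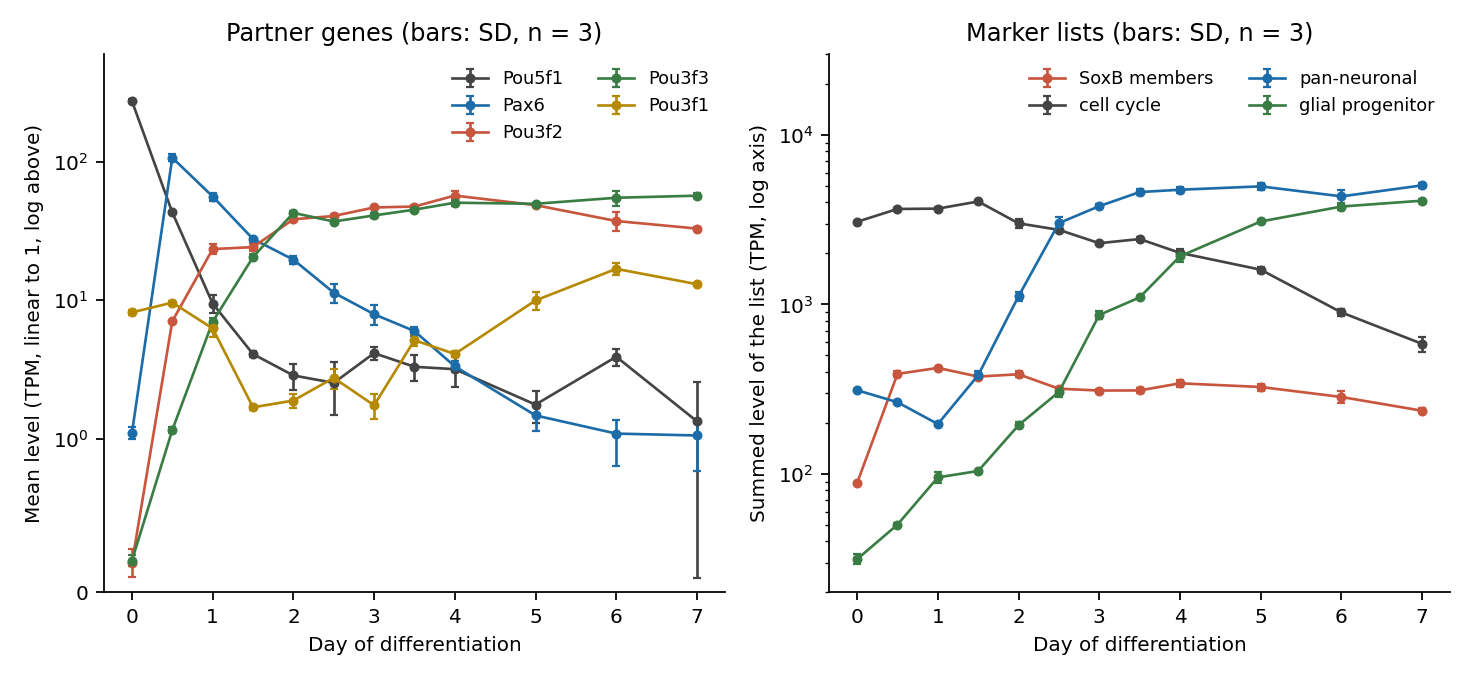
Left, mean level in TPM of 5 partner genes against the day of differentiation (vertical axis linear up to 1 and logarithmic above); right, summed level in TPM of the 4 SoxB genes and of 3 marker lists (logarithmic axis). Bars are the SD of 3 libraries. Pou5f1 was at 275 TPM at day 0, Pax6 at 107 TPM at day 0.5 and Pou3f3 at 56.9 TPM at day 7, and the cell cycle sum was 585 TPM at day 7, against 2299 TPM at day 3.

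Genes reported elsewhere as SoxB targets in neural progenitors moved both ways. Of 16 on the list 15 could be tested. At day 0.5, 10 were called higher and 3 lower than at day 0 (median log2 fold change 0.84), at day 3, 7 were higher and 7 lower than at day 0.5 (0.03), and at day 7, 5 were higher and 9 lower than at day 3 (-0.58). The shares of all genes called higher and lower were 27.6% and 26.7%, 37.6% and 36.1%, and 36.2% and 36.1% in these 3 comparisons. Hes5, a Notch effector, was at 150.0 ± 15.6 TPM at day 0.5, against 4.00 ± 0.76 TPM at day 0, and at day 7 it was at 11.9 ± 1.92 TPM, against 82.8 ± 8.42 TPM at day 3. Fabp7, a lipid-binding protein of radial glia, kept rising, with 3188 ± 78.5 TPM at day 7, against 660 ± 36.1 TPM at day 3 (2.10 ± 0.06, edgeR adjusted p = 3.88e-26). Ccnd1, a G1 cyclin, was at 6.44 ± 0.11 TPM at day 7, against 50.4 ± 6.68 TPM at day 3. Hes5 and Ccnd1 share exon bases with a gene on the opposite strand and are uncertain to that extent.

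Targets reported for Sox2 with Oct4 in pluripotent cells were mostly called lower, while Sox2 was not. Of 11 tested, 8 were called lower at day 0.5 than at day 0, 8 at day 3 than at day 0.5, and 10 at day 7 than at day 3, where 26.7%, 36.1% and 36.1% of all genes were. The late calls were made at low levels. The list summed to 396 to 424 TPM at day 0, but to 29.7 to 35.7 TPM at day 3 and 6.19 to 13.4 TPM at day 7. Fgf4 and Tdgf1 were under 0.1 TPM in every day 7 library. Utf1 was at 2.90 ± 0.13 TPM at day 0.5, against 28.2 ± 3.68 TPM at day 0 (-3.27 ± 0.20, edgeR adjusted p = 2.02e-15). Nanog was at 2.40 ± 0.47 TPM, against 10.3 ± 0.27 TPM (-2.14 ± 0.16, edgeR adjusted p = 1.20e-13). Lefty1, a Nodal antagonist, was the exception among those called at day 0.5, with 2.47 ± 0.25 TPM, against 0.06 ± 0.04 TPM at day 0. Pou5f1 and Nanog stand on this list and on that of the partners.

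The genes whose 12 day means most resembled each member were sought among 11223 genes by Pearson's r of mean log2 CPM. Nearest to Sox1 were Ptch1, the Hedgehog receptor and itself a Hedgehog target (r = 0.97), Atoh8 (0.96), Celsr1 (0.95), Frat2 (0.95) and Sall2 (0.94). Sox2 was most like Irf2bp1 (0.96), Vstm2b (0.95), Pkdcc (0.94), Sox1ot (0.94) and Rbbp9 (0.93). For Sox3 the list began with Crabp2, a retinoic acid binding protein (0.99), and went on with Slc7a6 (0.98), Baz1a (0.98), Thoc6 (0.98) and Sox13 (0.98), and for Sox21 it was Meis2 (0.99), a cofactor of Hox proteins, Tmem132e (0.98), Ajap1 (0.98), Ndnf (0.98) and Meis1 (0.98). The points are day means from the same libraries and scaling, so r is a description over 12 days. With log2(TPM + 1) only 3, 1, 2 and 2 of the 5 stayed among the 5 nearest to Sox1, Sox2, Sox3 and Sox21. Ptch1 and Meis2 were still the nearest to Sox1 and Sox21. Vstm2b, Thoc6 and Meis1 share exon bases with a gene on the opposite strand, and Baz1a with a gene on its own strand, so their values are uncertain.

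Among the members themselves, the same measure over the 12 day means gave r = 0.838 for Sox21 with Sox2, 0.697 for Sox3 with Sox1, 0.693 for Sox2 with Sox1, 0.393 for Sox21 with Sox1, 0.301 for Sox3 with Sox2 and 0.124 for Sox21 with Sox3. All 6 share the low day 0 point. Sox21 and Sox3 were the least alike, since Sox21 was higher at day 5 than at day 2 while Sox3 was lower.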

How the data were processed

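The 36 mouse libraries (12 days, 3 each) hold polyadenylated RNA of HM1 cells. Per the labels' protocols, the RNeasy Plus Micro kit gave the RNA and a KAPA kit for mRNA the libraries. Per the submitters' processing notes, bcl2fastq 2.20.0, RSEM and GRCm38 were used. Aligner, annotation release and strand setting: not given in the sources used. The authors deposited 1 table of RSEM's expected counts, 6.87% of them not whole, and 1 table of abundance in TPM. The deposited TPM columns each summed to between 999999.21 and 1000000.98, so TPM gives shares of a library, in which a rise of some transcripts lowers the others. A symbol was found for 51633 of 51912 gene IDs.

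Expected counts were rounded and filtered with filterByExpr by day, which kept 17990 of 32047 genes with a count. Libraries were scaled by TMM (factors 0.924 to 1.06) and fitted in 12 day groups with 24 residual degrees of freedom in edgeR 4.0.16 (R 4.3.3). All 66 pairs of days were read from this fit, of which 23 were set as comparisons, and a gene was called at a Benjamini-Hochberg adjusted p under 0.05. Approximate standard errors were taken as |log2 fold change| over the root of F, which is no direct estimate. Depth limits counting error only, and no molecular identifiers mark independent molecules. In each of the 36 same-day pairs, libraries differed beyond sampling noise (chi-square per degree of freedom 3.13 to 54.1), so each library counted as 1 sample. Mitochondrial genes took 0.949% to 1.92% of the counts.

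Gene lists (18) are described by counts and medians, with no set test. Genes named in the text came mainly from the 4 members, the other Sox genes and genes overlapping a member. Others came from up to 3 rises and 3 falls per list and stage comparison. For each member the 5 genes with the most similar day means were named, among genes with a day mean of at least 10 CPM. Of the other Sox genes, Sox12, Sox15 and Sox30 were counted but not described. The 4 members, the lists and the rules were chosen with earlier results of these data known, so nothing here is independent support for a pattern seen before. Sequences came from GENCODE M21 transcripts and RefSeq promoter windows (GRCm38.p6). The alternatives tried were DESeq2 1.42.0, scaling by median of ratios, no filter, a fit of the 6 libraries alone, a block for replicate number, each library left out, limma 3.58.1 on log2(TPM + 1) or log2(TPM + 0.1), and CPM in place of TPM. Human samples of the series were not analysed here.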

Additional observations from a re-analysis of the deposited data

How the results depend on the processing

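The large changes kept their direction and call under every alternative run, among them the rise of all 4 genes at day 0.5, the falls of Sox1 at days 1.5 and 2.5, the fall of Sox3 at day 6 and the steps of Sox21 at days 1.5, 2.5 and 3.5. Among the 23 comparisons set, no call of a member was reversed, while Sox2 at day 3 over day 0.5, which did not pass the test, had the opposite sign on both TPM scales (0.10). Outside those 23, Sox2 at day 7 over day 1.5 was called lower in the counts (-0.30) although its mean TPM was higher at day 7. Calls of small steps moved, and the cause was not tested. With limma on log2(TPM + 1) and on log2(TPM + 0.1), these calls were lost: Sox1 at day 2 over day 1.5 (-0.077 and -0.079) and at day 6 over day 5 (-0.11 with both), Sox3 at day 2 over day 1.5 (-0.088 with both) and at day 3.5 over day 3 (-0.18 with both), and Sox21 at day 3 over day 2.5 (-0.12 and -0.13) and at day 6 over day 5 (-0.089 and -0.091). On the same 2 scales calls were gained for Sox2 at day 2 over day 1.5 (0.17 with both) and at day 7 over day 3 (0.18 with both), and for Sox21 at day 7 over day 3 (0.25 and 0.26). With only the 6 libraries compared, calls were gained for Sox2 at day 3 over day 0.5 (-0.090), Sox3 at day 1.5 over day 1 (0.13) and at day 2.5 over day 2 (-0.17), and Sox21 at day 7 over day 3 (0.099). With no filter Sox3 gained calls at day 1.5 over day 1 (0.16) and day 2.5 over day 2 (-0.16). Day 2.5 over day 2 also passed with median-of-ratios scaling (-0.19) and DESeq2 (-0.19), as did Sox2 at day 3 over day 0.5 with DESeq2 (-0.11). In CPM the highest Sox2 day was day 1. By Spearman's rho, 1, 0, 1 and 0 of the 5 genes most like Sox1, Sox2, Sox3 and Sox21 stayed among the 5 nearest.

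Leaving out single libraries gave these ranges of log2 fold change. Sox1 at day 7 over day 6 ran from -0.29 to -0.16 and lost its call without day 7 replicate 3 (-0.16). Sox2 at day 1.5 over day 1 ran from -0.15 to -0.0999 and lost its call without day 1 replicate 2 (-0.13), day 1 replicate 3 (-0.0999), day 1.5 replicate 2 (-0.13) or day 1.5 replicate 3 (-0.10). Sox2 at day 5 over day 4 ran from 0.057 to 0.14 and passed without day 5 replicate 2 (0.14), and at day 6 over day 5 it ran from -0.16 to -0.060 and passed without day 5 replicate 2 (-0.14) or day 6 replicate 3 (-0.16). Sox3 at day 1.5 over day 1 ran from 0.13 to 0.20 and passed without day 1 replicate 1 (0.20), at day 2 over day 1.5 it ran from -0.28 to -0.17 and lost its call without day 2 replicate 1 (-0.17), and at day 2.5 over day 2 it ran from -0.23 to -0.12 and passed without day 2 replicate 1 (-0.23) or day 2.5 replicate 2 (-0.22). Sox3 at day 3.5 over day 3 ran from -0.24 to -0.14 and kept its call in 1 of 6 fits, without day 3 replicate 2. Sox21 at day 3 over day 2.5 ran from -0.20 to -0.15 and lost its call without day 2.5 replicate 2 (-0.16), day 2.5 replicate 3 (-0.16) or day 3 replicate 3 (-0.15). The day of the highest mean moved to day 0.5 for Sox1 without replicate 2 (range 0.5 to 1), and to day 5 for Sox2 without replicate 2 or 3 (range 5 to 6).

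Replicate numbers showed no general pairing of the samples. Over 198 pairs of same-numbered libraries the correlation of deviations from the day means had a median of -0.012 and a range of -0.28 to 0.26, with 21 pairs above 0.1. The median over 396 pairs of differently numbered libraries was 0.005. A median over all days cannot show whether the libraries of single days were paired. With the replicate number as a block no call of a member changed in the comparisons made: Sox1 at day 7 over day 3 was -0.62, Sox2 0.013, Sox3 -3.32 and Sox21 0.090. Depth limits the lowest values most, since Sox21 had 61 to 80 counts a library at day 0 and Sox14 at most 3 counts in any library.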

Other observations

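Genes of the caudal epiblast and of FGF and Wnt signalling were lower when the SoxB genes had risen. Of 18, 17 were called lower at day 0.5 than at day 0, where 26.7% of all genes were, and their summed level was 409 to 491 TPM at day 0.5, against 1454 to 1564 TPM at day 0. Of 20 genes of the proneural and neurogenic transition, 19 were called higher at day 3 than at day 0.5, where 37.6% of all genes were, and 17 were called lower at day 7 than at day 3, where 36.1% were. Neurog2, a proneural factor of motor neuron precursors, had its highest day mean, 103 ± 10.5 TPM (SD, n = 3), at day 2.5. Its libraries there, at 91.2 to 112 TPM, overlapped those of day 3, at 85.2 to 111 TPM. Among the days after day 0, Sox2 had its lowest mean at day 2.5 too. Neurog2 was at 1.13 ± 0.13 TPM at day 7, against 99.5 ± 13.1 TPM at day 3.

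Markers of other cell types differed in course. The counts below are for day 7 over day 3, where 36.2% of all genes tested were called higher and 36.1% lower. The neural crest, paraxial mesoderm and endoderm lists hold few genes. Their counts are to be read against these shares, and those of paraxial mesoderm lie near them. Of 8 oligodendrocyte genes 7 could be tested, and those 7 were called higher at day 7 than at day 3, where 36.2% of all genes were, with sums of 172 to 187 TPM at day 7, against 48.5 to 52.1 TPM at day 3, while Mog was under 0.1 TPM in every library of both days. Of 10 fibroblast and feeder genes 7 were called higher and 1 lower at day 7 than at day 3, with sums of 925 to 1055 TPM at day 7, against 103 to 136 TPM at day 3. Of 6 neural crest genes tested 3 were higher and 1 lower, with sums of 49.96 to 50.51 TPM at day 7, against 57.2 to 80.3 TPM at day 3. Of 9 paraxial mesoderm genes tested 3 were higher and 3 lower, with a mean sum of 18.9 TPM at day 7, against 21.2 TPM at day 3. Of 9 endoderm and surface epithelium genes tested 3 were higher and 5 lower, although their mean sum was 267 TPM at day 7, against 111 TPM at day 3. Of 7 blood and microglia genes 3 could be tested, and those 3 were lower at day 7, with sums of 0.15 to 0.39 TPM, against 2.62 to 7.23 TPM at day 3. The part of such cells in the SoxB levels was not tested.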
